A study of Rattus norvegicus with 21 samples.

Results

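At d211, 39 protein-coding genes had lower transcript levels in the livers of early weaned rats than in control livers, and higher levels again in early weaned rats given leucine. They were chosen by the values they had in these 9 libraries. The means of the controls and of the leucine group had to be at least 1 FPKM (fragments scaled to transcript length and library size) and at least 1.7 times the early weaned mean, and the highest early weaned library had to lie below all 6 others. Of 9745 protein-coding genes at that level in both groups, 56 met these limits. Of those, 17 were left out by name, among them Sds, Hlf, Dbp, Tef, Per3 and the genes named Cyp, Gst or Slc, which left 39.

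Rat liver RNA was sequenced in 21 libraries, 3 in each of 7 groups. Wistar rats were sampled at d23 and at d63, each time as controls and as early weaned rats. SD (Sprague Dawley) rats were sampled at d211 as controls, as early weaned rats, and as early weaned rats that drank water with 1.5% leucine. No group of controls given leucine was among these samples, and every leucine library came from an early weaned rat. The labels give no sex, no hour of sampling and no weaning day. They do not state that each library of a group is its own animal, and a p-value here reflects the scatter among these libraries alone, which may be technical.

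The 39 genes were a mixture of clock genes, peroxisomal and other lipid enzymes, secreted proteins and signalling genes. The liver clock is a loop in which CLOCK or NPAS2 pairs with ARNTL and binds E-boxes, and the proteins made from their targets, such as the REV-ERB and PER-CRY repressors, switch the loop off again, so these transcripts swing over the day. Peroxisomes shorten branched and very long fatty acids and the side chain of bile acid precursors, which mitochondria do not handle. The adult male rat liver also secretes large amounts of alpha-2u-globulins, lipocalins that carry pheromones into urine, under the control of growth hormone and sex steroids.

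Total counts ran from 52054644 to 75118153 units per library, where 1 sequenced fragment was worth about 4 units. The 9 hepatocyte marker genes found in the tables summed to between 56690 and 121100 FPKM, and none was under 0.1 FPKM in any group. The 7 cholangiocyte markers summed to 16.2 to 30.6 FPKM in early weaned livers at d211, above both the 8.26 to 13.5 of controls and the 10.1 to 15.5 of the leucine group, and all 6 that could be tested were higher in early weaned than in control livers. Of the 7, 4 had a mean under 0.1 FPKM in controls and 4 with leucine, and 3 did in early weaned livers. Between early weaned and control livers edgeR called 0 of the 6, DESeq2 1 and limma 0. By edgeR 1 of the 6 (16.7%) had an unadjusted p under 0.05, against 17.3% of all genes. The part of these markers in the results was not tested. Eif2s3y and Kdm5d, both on the Y chromosome, ran from 9.08 to 17.8 and from 1.43 to 3.88 FPKM in 18 libraries, and were at or under 0.01 FPKM in the other 3. Those 3 libraries were early weaned replicates 2 and 3 at d23 and control replicate 2 at d63. Control replicate 2 at d63 also had 2368 FPKM of Cyp2c12, a female-type gene of adult rat liver, against 36.8 and 83.5 in the other d63 controls, and 0.34 FPKM of the male-type Cyp2c11 against 542 and 554. Control replicate 3 at d23 stood apart as well, with a mean correlation of 0.876 to its own group, against 0.92 and 0.922 for the other d23 controls. All 9 libraries at d211 had Y-linked transcripts. In bulk tissue, fewer cells of a type and less RNA per cell cannot be told apart.

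**Figure D1:**
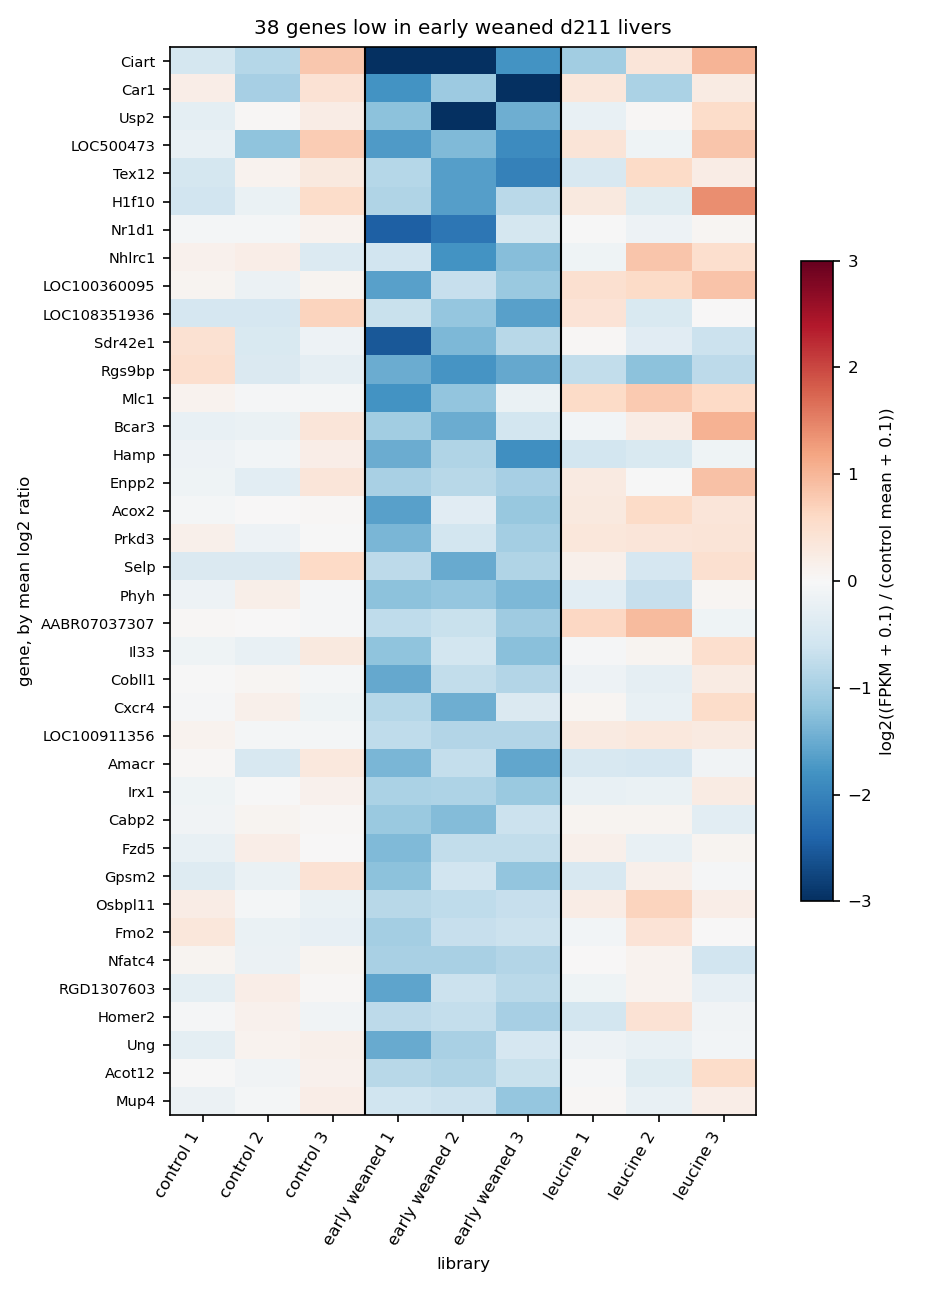
Each row is 1 of 38 of the genes and each column 1 of the 9 libraries at d211, 3 per group. Colour is log2 of the FPKM value plus 0.1 over the control mean plus 0.1, limited to 3 in either direction. The median over all 39 was −1.19, −0.921 and −0.993 in the 3 early weaned libraries and 0.0156, 0.0824 and 0.252 in the 3 leucine libraries.

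Because the values at d211 chose the genes, the low early weaned level is given as a description with no test. The control mean was 1.7 to 9.84 times the early weaned mean, with a median of 1.99. The leucine mean was 1.71 to 12.5 times the early weaned mean, with a median of 2.21. Both ratios share the early weaned libraries, and are not separate evidence. The smaller of the ratios reached 2 in 12 genes, and 4 genes had a gap of at least 1.5 times between the highest early weaned library and the lowest of the other 6, namely Usp2, Ciart, Irx1 and LOC100911356. Osbpl11, at a control ratio of 1.702, was just inside, while Cdo1, a cysteine-degrading enzyme, at 1.6951 and Hexim2, an inhibitor of transcription elongation, at a leucine ratio of 1.6747 were just outside. Cdo1 had 776, 860 and 739 FPKM in controls, 419, 540 and 442 in early weaned libraries, and 751, 982 and 788 with leucine, and Hexim2 had 2.69, 2.06 and 2.34, then 1.64, 1.14 and 1.22, then 2.55, 1.75 and 2.40.

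The early weaned libraries did not rank the same way for every gene. The highest early weaned value came from replicate 1 in 9 genes, replicate 2 in 17 and replicate 3 in 13. The scale mattered too, since the median of 9868 genes was 0.186 higher on the log2 FPKM scale in early weaned than in control livers, and 0.157 lower with leucine than without. Under TMM scaling, which removes that shift, all 39 genes met the limits and 84 genes did in all. The fitted log2 differences from controls then ran from −3.50 to −0.98 with a median of −1.22, where the median of all genes was 0.02, and those of leucine against no leucine ran from 0.93 to 3.79 with a median of 1.30. The same limits with the controls as the low group gave 97 genes before any was left out by name, and with the leucine group as the low one 42, against the 56 here. Under TMM scaling these counts were 59, 35 and 105.

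**Figure D2:**
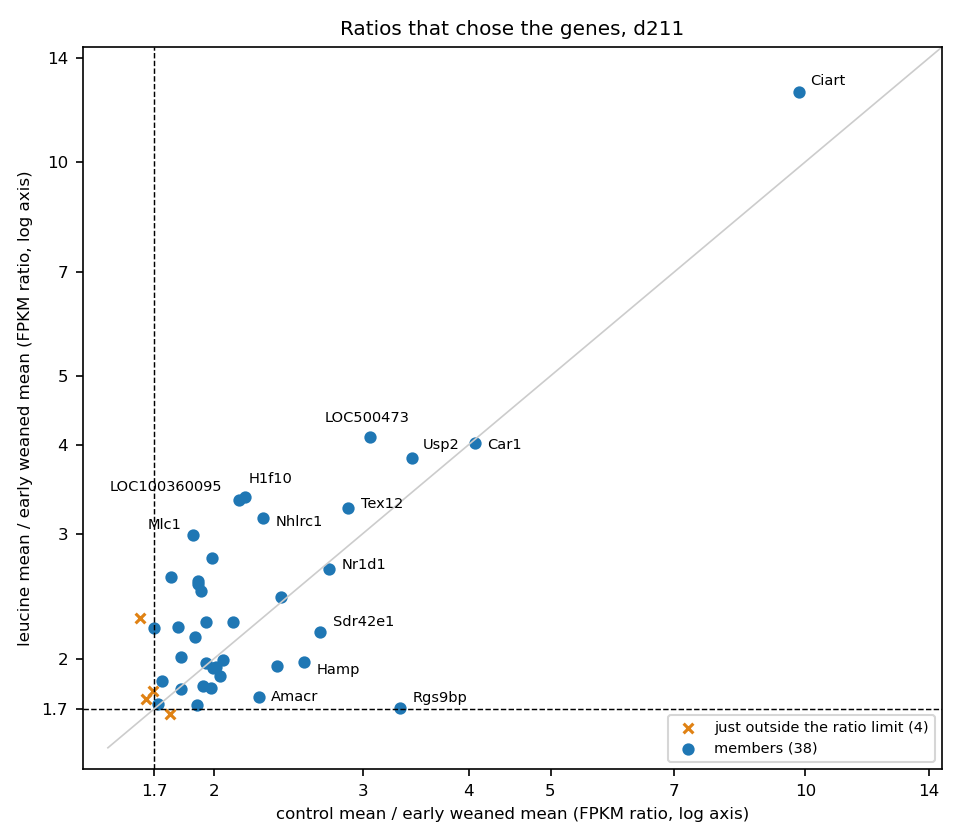
The x axis is the ratio of the control mean to the early weaned mean and the y axis the ratio of the leucine mean to the early weaned mean, both of FPKM values on log axes. Blue points are 38 of the genes, orange crosses the 4 genes closest to the limit from outside, dashed lines mark the limit of 1.7 and the grey line marks equal ratios; 23 of the points lie above that line.

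Clock genes were among those with the largest ratios. Ciart, gene ENSRNOG00000042717 on chromosome 2, which encodes a repressor that binds the CLOCK-ARNTL pair, had 1.36, 1.06 and 3.59 FPKM in controls, was listed at 0 and had 0.103 and 0.508 FPKM in early weaned libraries, and had 0.928, 2.60 and 4.15 FPKM with leucine. In counts the early weaned libraries held 0, 12 and 57 units, and 1 sequenced fragment was worth about 4 units. A count of 0 allows up to 3 fragments, 12 units, so replicates 1 and 2 were no higher than what a zero count allows, and the early weaned mean behind the ratios of 9.84 and 12.5 comes mainly from replicate 3. Nr1d1, gene ENSRNOG00000009329 on chromosome 10, which encodes the REV-ERB alpha repressor of Arntl, had 74.6, 74.8 and 84.4 FPKM in controls and 76.9, 70.0 and 81.4 FPKM with leucine. Its early weaned libraries had 14.2, 17.3 and 53.8 FPKM, so replicates 1 and 2 were far below the other groups and replicate 3 was closer to them than to its own group. Usp2, a deubiquitinase gene with a strong daily rhythm in liver, had 4.53, 5.67 and 6.52 FPKM in controls, 2.32, 0.612 and 1.94 in early weaned libraries, and 4.77, 5.70 and 8.22 with leucine. Here replicate 2 was lowest, not replicate 1 as for Ciart and Nr1d1.

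Other clock genes lay on both sides of the controls in the same libraries. Over all 15019 genes tested at d211, edgeR called 0.719% between the early weaned and the control group, with 0.419% that rose and 0.3% that fell, DESeq2 7.47% and limma 1.1%, and edgeR had 17.3% at an unadjusted p under 0.05. Between leucine and no leucine in early weaned livers the shares were 0.36%, with 0.18% that rose and 0.18% that fell, then 5.27%, 0.506% and 13.1%. Leaving out also the genes that the rule drops by name, which for the clock are Clock, Cry2, Dbp, Hlf, Per3 and Tef, 12 genes of the circadian list were tested. Of these, 6 were lower and 6 higher in early weaned livers under TMM scaling, with a median log2 difference of 0.10, and Npas2 rose. On the FPKM scale 4 were lower and 8 higher. EdgeR had 7 of the 12 (58.3%) at an unadjusted p under 0.05, DESeq2 called 6 and limma 2. With leucine against without, 7 of the 12 were higher under TMM scaling, with a median of 0.18, and 6 of the 12 on the FPKM scale. There edgeR called 0, with 6 of the 12 (50%) at an unadjusted p under 0.05, DESeq2 called 6 and limma 1. Arntl, the activator that Nr1d1 represses, had 3.23, 1.89 and 1.12 FPKM in controls, 10.6, 10.3 and 7.21 in early weaned libraries, and 2.78, 3.45 and 0.545 with leucine. Dbp, an output gene of the loop that met the same limits and was left out by name, had 72.6, 68.6 and 139 FPKM in controls, 0.871, 0.993 and 14.6 in early weaned libraries, and 81.5, 67.8 and 175 with leucine. As for Nr1d1 and Ciart, early weaned replicate 3 had the highest Dbp value of its group. Whether a different hour of sampling had a part in these values was not tested, since the labels give none.

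RefSeq entries of the rat assembly GRCr8 matched 36 of the 39 genes, and 28 had a promoter sequence, from 250 bases before to 50 bases after the annotated start. The E-box CACGTG, which reads the same on both strands, was found in 5 of the 28, or 17.9%, against 6.65% of all 27457 promoters of that length. The Ciart promoter held 3, starting 93, 35 and 21 bases before the start, and Tex12, Bcar3, Irx1 and Ung held 1 each. Ciart is shown whole because it has the largest ratios and the most E-boxes, and the other 4 as short windows for comparison, all 5′ to 3′ on the strand of the gene, with the E-box in capitals.
Ciart promoter (chr2:186112197-186112496, minus strand): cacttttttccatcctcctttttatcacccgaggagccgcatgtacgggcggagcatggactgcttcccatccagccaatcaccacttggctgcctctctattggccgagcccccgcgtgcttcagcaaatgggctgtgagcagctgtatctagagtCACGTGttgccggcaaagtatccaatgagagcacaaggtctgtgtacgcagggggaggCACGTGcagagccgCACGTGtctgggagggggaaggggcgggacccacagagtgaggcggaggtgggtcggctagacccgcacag
Tex12 E-box (chr8:59809570-59809609, minus strand): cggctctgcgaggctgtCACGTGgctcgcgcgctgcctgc
Bcar3 E-box (chr2:213209717-213209756, plus strand): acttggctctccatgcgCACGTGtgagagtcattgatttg
Irx1 E-box (chr1:33122957-33122996, plus strand): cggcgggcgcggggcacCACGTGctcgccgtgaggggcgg
Ung E-box (chr12:48154080-48154119, minus strand): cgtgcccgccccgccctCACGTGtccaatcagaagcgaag
The letters around the E-box differ between the 5 genes, and the searched promoters of Nr1d1 and Usp2 held no CACGTG in this window. Nr1d1, Il33 and Cabp2 had 2 promoters each, and only the first was searched, so the other Nr1d1 promoter is not covered. The D-box TTANGTAA was in 0 of 28 promoters against 2.19% of all, and the ROR element TAGGTCA in 0 of 28 against 2.6%, both searched on either strand. The GAS element TTCNNNGAA, which reads the same on both strands, was in the promoters of Hamp and LOC100360095, 7.14% of the 28 against 8.68% of all. A match of letters is a description of these windows, not a bound site.

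Enzymes that oxidise branched fatty acids and the bile acid side chain were low in the early weaned livers. Phyh, phytanoyl-CoA hydroxylase, which starts the alpha-oxidation of phytanic acid in peroxisomes, had 813, 1021 and 875 FPKM in controls, 382, 402 and 356 in early weaned libraries, and 730, 561 and 939 with leucine. The early weaned values were close together (SD 23.0), and the leucine values were spread more widely (SD 189). Amacr, the racemase that turns branched acyl-CoA into the form that can be oxidised, had 209, 146 and 254 FPKM in controls, 78.0, 123 and 68.6 in early weaned libraries, and 144, 143 and 189 with leucine. Acox2, the oxidase for branched acyl-CoA and bile acid precursors, had 183, 193 and 196 FPKM in controls, 61.8, 151 and 86.1 in early weaned libraries, and 234, 282 and 245 with leucine. For Amacr and Acox2, early weaned replicate 2 was the highest of its group and came closest to the other groups. LOC100911356, annotated as similar to the peroxisomal biogenesis factor Pex19, was even within each group, with 7.14 to 8.08 FPKM in controls, 3.99 to 4.36 in early weaned libraries and 8.98 to 9.29 with leucine. This entry overlaps Ctif on the same strand in the table, so reads of these genes may be mixed.

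For other peroxisomal genes the direction depended on the scaling. Of 45 tested genes of peroxisomal oxidation and biogenesis that are neither members nor dropped by name, a list made after the 39 were known, 36 were lower in early weaned than in control livers under TMM scaling, with a median log2 difference of −0.21. On the FPKM scale 23 of the 45 were lower. EdgeR called 0 of the 45, with 17 (37.8%) at an unadjusted p under 0.05, while DESeq2 called 8 and limma 1. With leucine against without, 34 of 45 were higher under TMM scaling, with a median of 0.15, and 20 of 45 on the FPKM scale. EdgeR called 0 there, with 11 (24.4%) at an unadjusted p under 0.05, DESeq2 4 and limma 0. Ech1, which encodes a dienoyl-CoA isomerase, had 148, 217 and 193 FPKM in controls, 62.7, 62.8 and 59.2 in early weaned libraries, and 53.2, 44.6 and 157 with leucine, so it was low in early weaned livers without being high in each leucine library. Scp2, the thiolase that follows Acox2 in bile acid synthesis, had 302 to 332 FPKM in controls, 218 to 305 in early weaned libraries and 343 to 372 with leucine. Of 8 bile acid genes that are neither members nor dropped by name, 6 were lower in early weaned livers, with a median of −0.34, and edgeR called 0, with 2 (25%) at an unadjusted p under 0.05, DESeq2 1 and limma 0. With leucine 6 of the 8 were higher, with a median of 0.26, and edgeR called 0, with 1 (12.5%) at an unadjusted p under 0.05, DESeq2 1 and limma 0. These directions are under TMM scaling. On the FPKM scale 6 of the 8 were lower in early weaned livers and 5 were higher with leucine.

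**Figure D3:**
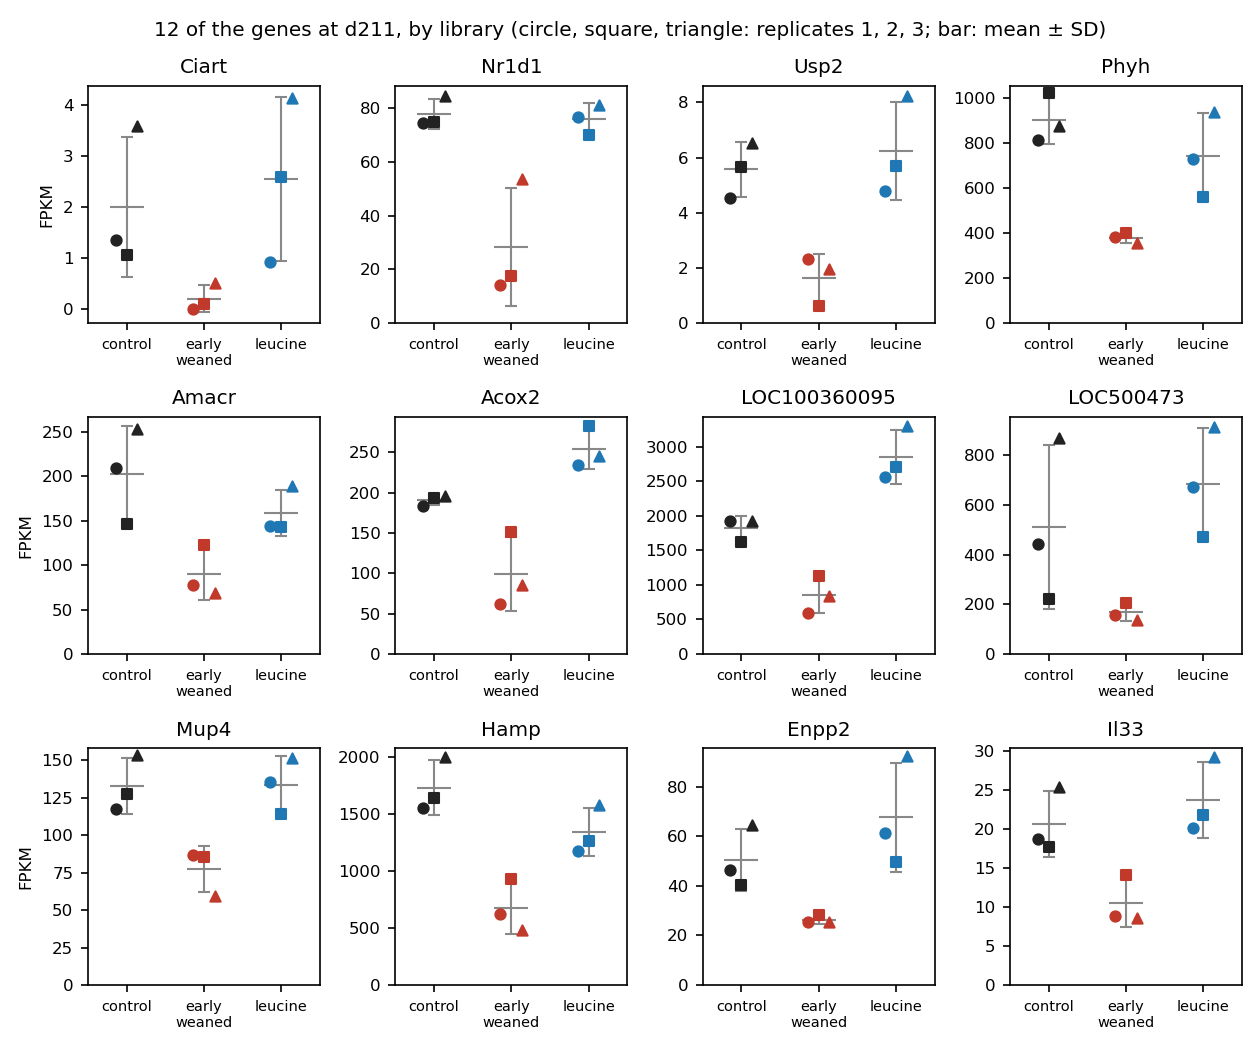
FPKM in each of the 9 libraries at d211 for 12 of the genes, with circles, squares and triangles for replicates 1, 2 and 3 and grey bars for mean ± SD (n = 3). Nr1d1 has an early weaned replicate 3 at 53.8 FPKM, far above replicates 1 and 2 at 14.2 and 17.3.

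Other metabolic enzymes shared the pattern at various levels. Acot12, a cytosolic acetyl-CoA thioesterase, had 37.1, 35.0 and 41.0 FPKM in controls, 21.2, 20.2 and 23.6 in early weaned libraries, and 37.0, 29.2 and 55.0 with leucine. Sdr42e1, a dehydrogenase of the short chain family, had 49.9, 26.7 and 33.1 FPKM in controls, 6.17, 14.2 and 20.7 in early weaned libraries, and 37.4, 28.8 and 23.3 with leucine. RGD1307603, at 463, 651 and 585 FPKM in controls, 189, 364 and 323 in early weaned libraries, and 514, 614 and 474 with leucine, has the name Gstp3 in GRCr8, a pi-class glutathione transferase. It stays among the 39 because the table does not use that name. Fmo2, a flavin-containing monooxygenase, was low throughout, at 0.883 to 1.38 FPKM in controls, 0.476 to 0.647 in early weaned libraries and 1.00 to 1.44 with leucine. Osbpl11, an oxysterol-binding lipid carrier, had 13.5, 11.1 and 9.97 FPKM in controls, 6.43, 6.73 and 7.12 in early weaned libraries, and 13.4, 18.3 and 13.2 with leucine.

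The entries among the 39 described as urinary protein or alpha-2u-globulin are LOC100360095, the most abundant of all, LOC500473 and Mup4. They are grouped by these descriptions alone, and LOC100360095 is not described as an alpha-2u-globulin or a major urinary protein. LOC100360095, annotated as similar to urinary protein 1, had 1927, 1622 and 1928 FPKM in controls, 592, 1124 and 843 in early weaned libraries, and 2559, 2710 and 3296 with leucine. Each leucine library was above each control. LOC500473, annotated as similar to alpha-2u-globulin, had 442, 222 and 872 FPKM in controls, 158, 205 and 139 in early weaned libraries, and 675, 469 and 916 with leucine. The gap between its lowest control and its highest early weaned library was only 1.08 times. Mup4, a major urinary protein gene, had 118, 127 and 153 FPKM in controls, 87.0, 85.5 and 59.4 in early weaned libraries, and 136, 114 and 151 with leucine.

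Other entries described as urinary protein or alpha-2u-globulin, a list made by description only, had the same direction. Of 9 such tested entries, all 9 were lower in early weaned than in control livers, with a median log2 difference of −0.75 against 0.02 for all genes, and all 9 were higher with leucine than without, with a median of 0.71. EdgeR called 0 in either comparison, with 9 (100%) and 6 (66.7%) at an unadjusted p under 0.05, against 17.3% and 13.1% of all genes, limma called 0 in both, and DESeq2 called 3 and 4. LOC259244, a neighbour that overlaps both Mup4 and LOC500473, had 3891, 2976 and 2897 FPKM in controls, 2064, 3157 and 2104 in early weaned libraries, and 4105, 3729 and 3930 with leucine, so its groups overlapped. LOC500473 and Mup4 lie 62.6 kb apart on chromosome 5 on the same strand, at 77338853 to 77342299 and 77404914 to 77408363 in the table's rat build, and both overlap LOC259244 and a further Mup4 entry there. Mup5, another such entry, also overlaps Mup4. The entries on chromosome 5 are near copies of each other, so the share of reads given to each entry is uncertain. Entries that share reads are not separate evidence, in the members or in the counts of 9. These counts also come from the libraries that chose the members, so they are a description only. LOC100360095 lies apart from them on chromosome 8, at 38150659 to 38154344.

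Some genes with a sex bias in rat liver were also apart between groups. The male-type Cyp2c11 had 1089, 478 and 1007 FPKM in controls, 780, 1099 and 889 in early weaned libraries, and 1236, 1383 and 1675 with leucine. Its leucine libraries lay above the other 6, while controls and early weaned libraries overlapped. The female-type Cyp2c12 had 8.01, 18.6 and 12.6 FPKM in controls, 41.4, 54.0 and 58.9 in early weaned libraries, and 10.4, 25.5 and 14.1 with leucine. Its early weaned libraries lay above the other 6, with a log2 difference from controls of 1.75 (adjusted p = 0.0724 by edgeR), which DESeq2 and limma called, and from leucine to no leucine of −1.48 (adjusted p = 0.121 by edgeR), which DESeq2 called. Under TMM scaling all 5 male-biased genes of the list were lower in early weaned than in control livers, although the mean FPKM of Cyp2c11 was higher, with a median log2 difference of −0.48, and 4 of 5 were higher with leucine, although the mean FPKM of Hsd3b5 was lower, with a median of 0.48. EdgeR called 0 of these 5 in either comparison and had 1 and 2 at an unadjusted p under 0.05, while DESeq2 called 1 and 0 and limma 0 and 0. The 2 other tested genes of the female-biased list, A1bg and Prlr, went the other way from Cyp2c12. Under TMM scaling both were lower in early weaned than in control livers, with a median log2 difference of −1.7. Both were higher with leucine, with a median of 1.22, and edgeR called 0 of these 2 in either comparison. A1bg was at most 0.275 FPKM at d211. The part of sex-biased expression in the urinary protein values was not tested.

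Hamp, which encodes hepcidin, the liver hormone that blocks iron export by removing ferroportin from cells, had 1549, 1639 and 1998 FPKM in controls, 618, 924 and 484 in early weaned libraries, and 1176, 1262 and 1579 with leucine. The leucine mean of 1339 ± 212 (SD, n = 3) lay between the early weaned mean of 675 ± 226 and the control mean of 1729 ± 237. A list of 19 other genes of iron handling and hepcidin control was made after the 39 were known, without genes dropped by name. Under TMM scaling 13 of them were lower in early weaned than in control livers, with a median log2 difference of −0.28. With leucine 13 were higher, with a median of 0.22. On the FPKM scale 11 of the 19 were lower, with a median of −0.07, and 11 were higher with leucine, with a median of 0.05. EdgeR called 0 of the 19 in either comparison, with 9 (47.4%) and 4 (21.1%) at an unadjusted p under 0.05, against 17.3% and 13.1% of all genes, while DESeq2 called 8 and 2 and limma 0 and 1. Id1, a target of the BMP signal that also drives hepcidin, had 5.30, 5.18 and 10.5 FPKM in controls, 3.24, 2.63 and 3.49 in early weaned libraries, and 3.32, 2.23 and 4.41 with leucine, so it was low in both early weaned groups. Tfrc, the transferrin receptor, had 10.2, 5.17 and 5.55 FPKM in controls, 23.2, 14.2 and 18.5 in early weaned libraries, and 11.6, 13.3 and 5.58 with leucine.

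Car1, carbonic anhydrase 1, which red blood cells hold in quantity, had 3.64, 1.52 and 4.28 FPKM in controls, 0.831, 1.44 and 0.0503 in early weaned libraries, and 4.0, 1.58 and 3.74 with leucine. Its lowest control and its highest early weaned library differed by 1.06 times. The 3 of 6 erythroid marker genes found in the table summed to 178 to 469 FPKM in controls, 345 to 891 in early weaned and 481 to 1114 in leucine libraries, so the sum was not low in the early weaned group as Car1 was. The part of red cells in the value of Car1 was not tested.

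Genes of vessel walls and immune cells were fewer, and of those Selp and Cxcr4 were low in level. Enpp2 is given beside them. Il33, an alarm cytokine stored in nuclei, had 18.7, 17.7 and 25.4 FPKM in controls, 8.83, 14.1 and 8.59 in early weaned libraries, and 20.0, 21.8 and 29.2 with leucine. Enpp2, which encodes autotaxin, the secreted enzyme that makes lysophosphatidic acid, had 46.4, 40.2 and 64.4 FPKM in controls, 25.5, 28.2 and 25.2 in early weaned libraries, and 61.2, 49.6 and 92.2 with leucine. Selp, the P-selectin of endothelium and platelets, had 2.46 to 5.09 FPKM in controls, 1.11 to 1.89 in early weaned libraries and 2.31 to 4.67 with leucine. Cxcr4, a chemokine receptor, had 1.47 to 1.82, then 0.526 to 1.18, then 1.37 to 2.43 FPKM. The sum of 10 sinusoidal endothelial markers was 43.1 to 108 FPKM in controls, 70.6 to 103 in early weaned and 89.8 to 109 in leucine libraries. The sum of 11 Kupffer cell and macrophage markers was 144 to 382, 240 to 471 and 284 to 418 FPKM, and that of 13 lymphocyte markers 11.6 to 13.1, 14.9 to 21.7 and 11.6 to 19.1 FPKM. The ranges of all 3 sums overlapped between early weaned and leucine libraries, but the median endothelial sum was 71.5 FPKM in early weaned livers against 99.4 in controls and 107.8 with leucine. All 10 endothelial and all 11 Kupffer markers were higher with leucine than without, except 1 Kupffer marker on the FPKM scale. Between early weaned and control livers 7 of 10 and 5 of 11 were lower under TMM scaling, but 2 of 10 and 0 of 11 on the FPKM scale. No marker of the endothelial or Kupffer lists was under 0.1 FPKM in any group. The part of these cells in the values of Il33, Selp and Cxcr4 was not tested.

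Signalling and membrane proteins formed another set. Prkd3, a protein kinase D, had 28.4, 23.3 and 25.6 FPKM in controls, 9.90, 17.5 and 12.6 in early weaned libraries, and 32.6, 33.2 and 33.8 with leucine. Mlc1, a membrane protein that modulates chloride currents in astrocytes, had 32.9, 29.8 and 29.2 FPKM in controls, 8.72, 13.4 and 26.5 in early weaned libraries, and 45.8, 53.1 and 46.2 with leucine. As with Nr1d1, early weaned replicate 3 was closest to the controls. Bcar3, an adaptor of adhesion signalling, had 7.12, 7.23 and 10.7 FPKM in controls, 4.03, 2.93 and 5.65 in early weaned libraries, and 7.89, 9.79 and 17.3 with leucine. Rgs9bp, which anchors a G-protein regulator in the retina, had 3.16, 1.60 and 1.80 FPKM in controls, 0.721, 0.575 and 0.685 in early weaned libraries, and 1.27, 0.883 and 1.23 with leucine. It was the gene whose leucine level stayed lowest against controls. Fzd5, a Wnt receptor, Nfatc4, a calcium-regulated transcription factor, Gpsm2, which orients the mitotic spindle, and Homer2, a scaffold protein, had control means of 2.06, 2.41, 2.65 and 2.41 FPKM, early weaned means of 1.05, 1.21, 1.30 and 1.32, and leucine means of 2.07, 2.21, 2.47 and 2.39. Cobll1, an actin-binding protein gene, had a control mean of 5.10 FPKM, an early weaned mean of 2.48 and a leucine mean of 4.95.

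Cabp2, a calcium sensor known from the retina and the inner ear, was at 91.5, 105 and 101.3 FPKM in controls, 45.8, 40.1 and 63.3 in early weaned libraries, and 105, 105 and 80.1 with leucine. It lies on chromosome 1 at 219329574 to 219335043 on the plus strand, 17.3 kb from RGD1307603 at 219309592 to 219312240 on the minus strand. Their ratios were alike, at 1.99 and 1.94 for Cabp2 and 1.94 and 1.83 for RGD1307603. Irx1, a homeobox transcription factor, was even within each group, at 8.09, 8.77 and 9.67 FPKM in controls, 4.56, 4.61 and 4.01 in early weaned libraries, and 7.57, 7.63 and 10.5 with leucine.

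Nuclear and repair genes were also present. Ung, uracil-DNA glycosylase, which removes uracil from DNA, had 29.4, 38.3 and 40.0 FPKM in controls, 12.6, 18.3 and 25.4 in early weaned libraries, and 32.2, 30.9 and 34.0 with leucine. H1f10, a linker histone, had 2.69, 3.54 and 5.98 FPKM in controls, 2.11, 1.24 and 2.26 in early weaned libraries, and 4.98, 3.12 and 10.8 with leucine. Nhlrc1, the E3 ligase malin that acts on glycogen metabolism, had 2.76, 2.93 and 1.89 FPKM in controls, 1.67, 0.658 and 0.978 in early weaned libraries, and 2.29, 4.55 and 3.59 with leucine. Tex12, a part of the meiotic synaptonemal complex, had 1.7, 2.71 and 3.11 FPKM in controls, 1.34, 0.728 and 0.541 in early weaned libraries, and 1.77, 3.79 and 2.93 with leucine. Tex12 overlaps Il18 and Bco2 in the table, and Nr1d1 overlaps Thra on the opposite strand. The kit is not stated to mark strand, so reads of overlapping genes may be mixed. LOC108351936, a copy similar to ribosomal protein L30 inside Spats2l, had 0.722, 0.728 and 1.76 FPKM in controls, 0.634, 0.421 and 0.280 in early weaned libraries, and 1.44, 0.746 and 1.07 with leucine, and its reads may come from the parent gene. In counts it held 14, 20 and 43 units in controls, 15, 10 and 7 in early weaned libraries, and 32, 15 and 24 with leucine. A count of 0 allows 12 units, so the ratios of LOC108351936 are uncertain. AABR07037307, an entry on the X chromosome with no description, had a control mean of 11.6 FPKM, an early weaned mean of 6.51 and a leucine mean of 17.

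With leucine, the levels of the 39 genes lay around the control level, a comparison on which the rule set no limit although it used both groups. The ratio of the leucine mean to the control mean ran from 0.515 to 1.58 with a median of 1.07, and 24 genes were above 1. The values of both groups chose the genes, so the next counts are a description and nothing is read from them. Between leucine and control livers, edgeR called 0 of the 39 genes and 0.0133% of all 15019 (0.00666% rose and 0.00666% fell), and 2 of the 39 had an unadjusted p under 0.05 against 10.8% of all genes. DESeq2 and limma also called 0. All 3 leucine libraries were above all 3 controls for LOC100360095, Mlc1, Acox2, Prkd3 and LOC100911356, or 5 of the 39, where 10.3% of 10320 protein-coding genes did so. They were below all controls for Rgs9bp, where 7.76% of those genes did so. The log2 difference of leucine from control was 0.59 for LOC100360095, 0.60 for Mlc1 and −0.996 for Rgs9bp.

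The Wistar libraries were not used in choosing the genes, and no early weaning effect on them passed edgeR's test there. In simulated counts, edgeR recovered 27 of 100 changes of 2-fold at d23 and 17 of 100 at d63. For changes of 4-fold it recovered 87 and 83 of 100. The changed genes were drawn only from those above the median level, so these shares do not cover the lower genes among the 39. A count of 0 calls therefore does not show that these genes were unchanged. All 39 were tested among 15416 genes. At d23 edgeR called 0 of them and 0.013% of all genes, 3 had an unadjusted p under 0.05, against 6.2% of all genes, and DESeq2 and limma called 0. The log2 differences had a median of 0.02, against −0.03 for all genes, with 22 genes higher and 16 lower. These counts keep the 6 genes under 0.6 FPKM in all 6 libraries at d23, whose direction has little meaning. AABR07037307, with a count of 0 in each of those libraries, was neither higher nor lower. At d63 edgeR called 0, as it did over all genes (0.0%), 3 had an unadjusted p under 0.05 against 6.05% of all genes, DESeq2 called 1 and limma 0. The median at d63 was 0.31, against −0.01 for all genes, with 27 genes higher and 12 lower in early weaned livers. For the difference between the early weaning effects at d63 and at d23, edgeR, DESeq2 and limma each called 0 of the 39, and 2 had an unadjusted p under 0.05 by edgeR, against 4.72% of all genes, where 0.00649% of all genes were called. Without the 3 libraries that lack Y-linked transcripts, edgeR's counts at d23, at d63 and for the difference were again 0, with 3, 3 and 6 at an unadjusted p under 0.05.

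**Figure D4:**
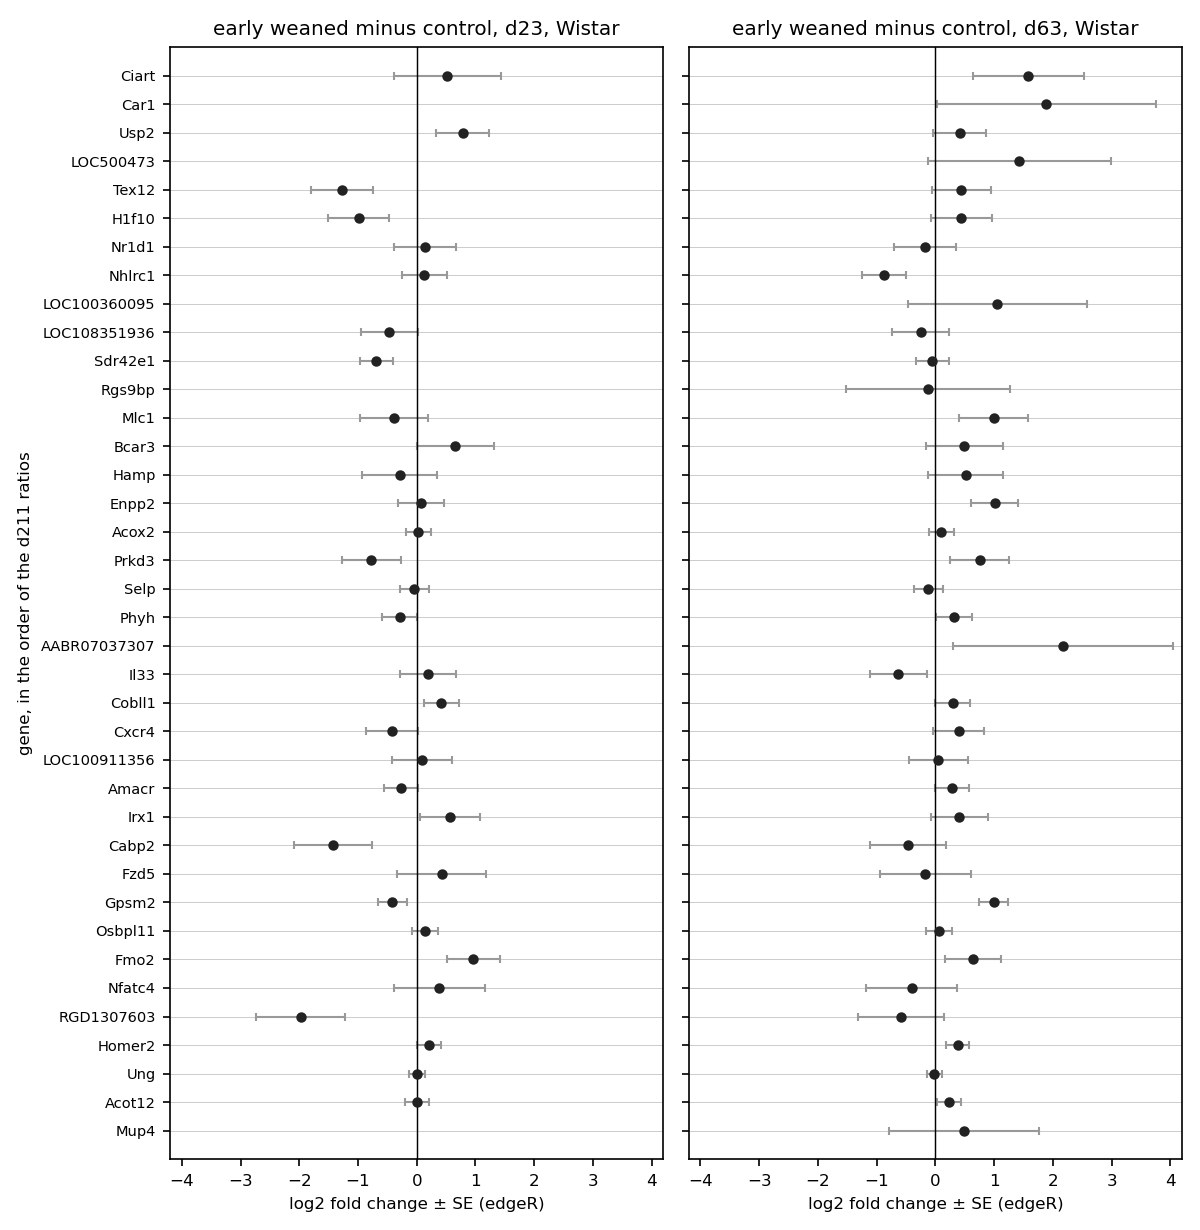
Points are log2 differences between early weaned and control Wistar livers at d23 (left) and d63 (right), with bars of 1 SE from edgeR, in the order of the d211 ratios. At d23 the 6 genes under 0.6 FPKM in all 6 libraries are left out, and at d63 26 of the 38 points lie above 0.

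Single genes at d23 went both ways. Tex12 had 0.81, 0.88 and 0.86 FPKM in controls and 0.51, 0.22 and 0.33 in early weaned libraries, H1f10 had 3.13, 4.56 and 6.44 against 3.08, 1.96 and 2.17, and Sdr42e1 had 23.2, 17.7 and 23.6 against 15, 9.21 and 16.9. In these 3 genes all early weaned libraries lay below all controls, as 3.41% of 10448 protein-coding genes did. In counts Tex12 had only 19, 20 and 20 units in controls and 13, 6 and 9 in early weaned libraries, where a count of 0 allows 12. None of these 3 genes passed, with log2 differences of −1.27 (SE 0.524, adjusted p = 0.785 by edgeR) for Tex12, −0.99 (SE 0.517, adjusted p = 0.836) for H1f10 and −0.69 (SE 0.284, adjusted p = 0.785) for Sdr42e1. Usp2 was the reverse, with 9.87, 9.15 and 4.2 FPKM in controls and 14.1, 16.6 and 9.98 in early weaned libraries, a separation that 4.41% of genes had. Its log2 difference was 0.78 (SE 0.453, adjusted p = 0.887 by edgeR). The closest Usp2 values were 9.98 FPKM in early weaned replicate 3 and 9.87 in control replicate 1. Early weaned replicates 2 and 3 at d23 lack Y-linked transcripts and no d23 control does, so the d23 differences are mixed with that. The lowest d23 control, replicate 3, was also the library that stood apart, and it was the lowest of its group for Ciart, at 0.22 FPKM against 5.98 and 7.63, for Nr1d1, at 4.46 against 23.1 and 19.6, for Bcar3, at 4.05 against 28.4 and 21.5, and for Fzd5, at 0.71 against 15.7 and 7.89. Phyh, Amacr and Acox2 overlapped between the d23 groups, at 775 to 1290, 150 to 193 and 125 to 194 FPKM in controls and 726 to 885, 80.2 to 216 and 127 to 184 in early weaned livers.

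At d63 the only gene with all early weaned libraries below all controls was Nhlrc1, with 1.94, 3.32 and 2.34 FPKM in controls and 1.34, 0.73 and 1.80 in early weaned libraries, where 15.2% of 10409 genes did so. Its log2 difference was −0.88 (SE 0.378, adjusted p = 0.793 by edgeR). All early weaned libraries lay above all controls for 6 of the 39, among them LOC500473, LOC100360095, Enpp2, Prkd3 and Gpsm2, where 5.63% of genes did so. Gpsm2 had 1.58, 2.53 and 1.93 FPKM in controls and 4.13, 4 and 3.20 in early weaned libraries, and Enpp2 had 36.3, 10.4 and 37.6 against 45.2, 61.5 and 52.6. LOC500473 had 276, 0 and 398 FPKM in controls and 778, 519 and 411 in early weaned libraries, and LOC100360095 had 1084, 0.50 and 1134 against 1141, 1858 and 1322. The values of 0, 0.50 and 10.4 FPKM are those of control replicate 2, the library without Y-linked transcripts and with female-type gene levels. Without it the log2 difference went from 1.43 to 0.84 for LOC500473, from 1.05 to 0.47 for LOC100360095 and from 1.01 to 0.61 for Enpp2, and for Gpsm2 it went from 0.99 to 1.19. Against the 2 other controls, 9 of the 39 lay above and 2 below in all early weaned libraries, where 9.41% and 21.2% of genes did.

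By DESeq2, Gpsm2 passed at d63 with a log2 difference of 0.998 and an adjusted p of 0.0414. By edgeR it was 0.99 (SE 0.249, adjusted p = 0.561), and over the 13 alternatives the adjusted p ran from 0.0414 to 1. Gpsm2 was 1.41 higher in the early weaning effect at d63 than in that at d23 on the log2 scale (SE 0.349, adjusted p = 0.839 by edgeR). At d211 its early weaned libraries, at 1.07, 1.74 and 1.11 FPKM, were below the controls, at 2.02, 2.30 and 3.64. Strain and table change together with that age, so the ages were not compared in 1 fit. Phyh, Amacr, Acox2 and Hamp overlapped between the groups at d63 as well, and Hamp had 1821, 2541 and 1418 FPKM in controls and 1990, 3597 and 2209 in early weaned livers.

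Age was tested in the same Wistar libraries. Between d23 and d63 controls, edgeR called 10 of the 39, and 17.6% of all genes, of which 8 rose, where 7.97% of all genes rose, and 2 fell, where 9.61% fell. The log2 rise of Ung was 0.78 (SE 0.133, adjusted p = 0.00671 by edgeR), from 14.8, 13.9 and 17 FPKM at d23 to 22.5, 28.9 and 27.2 at d63. Irx1 rose by 2.86 (SE 0.536, adjusted p = 0.00926 by edgeR), from 0.34, 0.21 and 0.84 to 3.43, 4.54 and 2.13 FPKM. Both groups of values were apart for each of these genes. RGD1307603 rose by 4.13 (SE 0.832, adjusted p = 0.0119 by edgeR), from 11.9, 73.0 and 30.5 to 453, 1193 and 335 FPKM, and its neighbour Cabp2 rose by 2.72 (SE 0.691, adjusted p = 0.0256 by edgeR), from 4.23, 12.7 and 42.3 to 110, 201 and 74.4 FPKM. For both genes control replicate 2 at d63 had the highest value.

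The 3 urinary protein entries went from near 0 to abundant in the libraries with Y-linked transcripts. LOC100360095 was at 0 in all d23 controls, Mup4 at 0, 0.08 and 0, and LOC500473 at 0.17, 0 and 0 FPKM. At d63 they had 1084 and 1134, 280 and 269, and 276 and 398 FPKM in control replicates 1 and 3, but 0.50, 0.15 and 0 in control replicate 2. Their adjusted p values by edgeR were 0.0132, 0.00846 and 0.0153, and no fold is given because the d23 level is at or near 0. All 9 other tested entries with such descriptions rose as well. Nhlrc1 also rose, by 1.90 (SE 0.39, adjusted p = 0.0127 by edgeR). Fmo2 fell by 2.90 (SE 0.494, adjusted p = 0.00673 by edgeR), from 7.01, 10.3 and 2.48 to 0.96, 0.71 and 0.97 FPKM, and Gpsm2 fell by 1.18 (SE 0.249, adjusted p = 0.0141 by edgeR).

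The age counts depended on single libraries and on the tool. They were 17 without control replicate 3 at d23, where 37.9% of all genes were called, and 16 by DESeq2, which called 27% of all genes. Without the 3 libraries that lack Y-linked transcripts 8 genes were called, 7 of them among the 10, and 3.81% of all genes. Cabp2, Nhlrc1 and Ung no longer passed then, at log2 differences of 2.24, 1.66 and 0.71. Cabp2 also did not pass without control replicate 1 or 2 at d23 or control replicate 1 or 2 at d63 (2.24, 2.47, 2.81 and 2.24), and Gpsm2 did not without control replicate 1 or 3 at d63 (−1.04 and −1.12). Nhlrc1 did not pass without control replicate 1 or 2 at d23 (1.74 and 1.78), nor did LOC500473, whose fitted difference has no meaning as a fold.

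**Figure D5:**
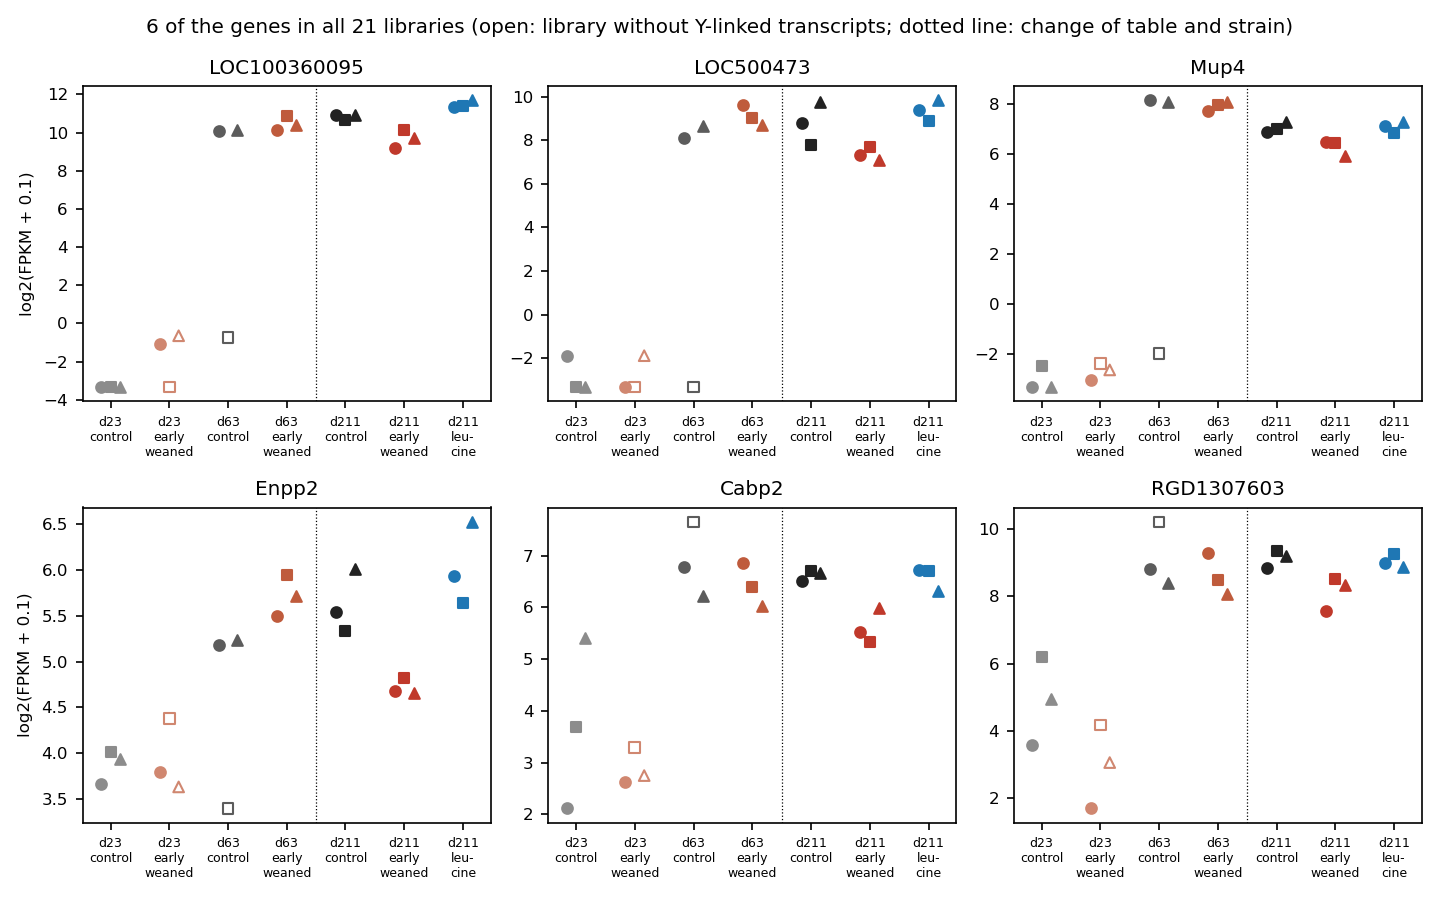
Log2 of the FPKM value plus 0.1 in all 21 libraries for 6 of the genes, by group, with circles, squares and triangles for replicates 1, 2 and 3 and open symbols for the 3 libraries without Y-linked transcripts. The open square at d63 is at 0.50, 0 and 0.15 FPKM for LOC100360095, LOC500473 and Mup4 and highest of its group for Cabp2 and RGD1307603, at 201 and 1193 FPKM.

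Levels at d211 and in the Wistar livers came from separate tables and strains and are given side by side only. Over the d63 and d211 controls, Phyh had 490 to 927 and 813 to 1021 FPKM, Nr1d1 34.9 to 60.1 and 74.6 to 84.4, and Hamp 1418 to 2541 and 1549 to 1998. Rgs9bp, Car1 and AABR07037307 were almost absent from the Wistar livers, at no more than 0.89, 1.26 and 1.87 FPKM in any of the 12 libraries, against control means of 2.19, 3.15 and 11.6 at d211. Of the 39 genes, 29 reached a mean of 1 FPKM in either group at d23 and 35 at d63.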

How the data were processed

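Liver RNA of 12 Wistar and 9 SD rat samples, 3 in each of 7 groups, was sequenced with a SMARTER mRNA-Seq kit, per the labels' protocols. The authors deposited FPKM values and whole-number estimated counts per gene in 2 tables of 32623 genes each, 1 for each strain. An aligner or counter is not given in the sources used here. GRCm38 and mm10 are the builds in the submitters' processing notes, but the tables hold rat gene IDs and coordinates of a rat build they do not name. Low counts pile up at multiples of 4, so a count unit is not 1 fragment.

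Levels and the choice of genes used FPKM as deposited. Members and lists were chosen with earlier results of these data known. Genes given library by library were those with the largest ratios or levels, those called, those in a list and those at the limit, with others as examples of a role. Each strain was fitted over all its groups with edgeR 4.0.16 in R 4.3.3 (quasi-likelihood test, TMM scaling, minimum count 10, Benjamini-Hochberg adjusted p under 0.05 as a call), on 15416 Wistar and 15019 SD genes, after tests on simulated data. The alternatives were DESeq2 1.42.0, limma 3.58.1 on log2(FPKM + 0.1) and log2(FPKM + 1), other size factors, no filter, a replicate block, and each library left out. The fit without the libraries lacking Y-linked transcripts was added after seeing the data. Of the 39 genes, 1 enters every count and fit but is not reported here. For the contrasts that chose the genes, the members' p-values are not reported. Replicate numbers did not pair samples: residuals of same-numbered samples correlated from −0.108 to 0.127 in 18 Wistar pairs and from −0.0902 to 0.122 in 9 SD pairs. Total counts were 52054644 to 75118153 units per library. The number of fragments, at about 4 units each, is lower and sets the precision. A count of 0 allows 12 units.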

Additional observations from a re-analysis of the deposited data

Results flagged for a closer look

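For 6 of the genes named above genes every early weaned library at d211 lay below every control, by the way the genes were chosen, while at 1 Wistar age every early weaned library lay above every control. The log2 difference between early weaned and control livers was 0.785 for Usp2 at d23. At d63 it was 1.43 for LOC500473, 1.05 for LOC100360095, 1.01 for Enpp2, 0.756 for Prkd3 and 0.995 for Gpsm2. These differences between ages were not tested, since strain and table change together with d211. Control replicate 2 at d63, which lacks Y-linked transcripts, had 0 FPKM of LOC500473, 0.50 of LOC100360095 and 10.4 of Enpp2, and without it the log2 differences were 0.84, 0.47 and 0.61. Early weaned replicates 2 and 3 at d23 lack Y-linked transcripts as well. The closest Usp2 values at d23 were 9.98 FPKM in early weaned replicate 3 and 9.87 in control replicate 1.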

How the results depend on the processing

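The number of genes that met the rule was 39. It was 63 at a ratio limit of 1.5, 12 at a limit of 2, 24 with a level limit of 5 FPKM, 62 with none, 84 with TMM-scaled values, all 39 among them, and 32 with TPM, 30 of the 39 among them, and 39 to 83 with 1 library left out, highest without early weaned replicate 2. For age in controls, 10 of the 39 were called, 16 by DESeq2 and from 7 to 17 with 1 library left out. At d63 DESeq2 called 1, Gpsm2, where edgeR called 0. With the replicate number as a block, edgeR called 0 at d23, 0 at d63, 0 for their difference, 11 for age and 0 for leucine against control, with 2, 2, 2, 15 and 3 at an unadjusted p under 0.05. Over the single genes named with a test, 335 alternatives kept direction and side of the threshold, 15 lost the call and 1 gained it, and 0 changed direction. The cause of these changes was not tested. Depth limits Ciart in early weaned livers and genes under 1 FPKM.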
